A study of Mus musculus with 9 samples.

Results

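The aminoacyl-tRNA synthetase genes of wild type mouse embryonic fibroblasts (MEFs) were followed through hyperosmotic stress. They are 36 of the 35275 genes of the deposited table, taken by symbol: 20 genes for cytosolic enzymes and 16 for mitochondrial enzymes, whose symbols end in 2. Cells of the strain C57Bl/6 stayed in iso-osmolar medium (300 mOsm) or were exposed for 3 h to medium with added sucrose, either 200 mM (500 mOsm, the low stress intensity of the study) or 300 mM (600 mOsm, its high stress intensity). Each treatment was sequenced as 3 libraries of poly-A selected RNA, 9 in all, and apart from sucrose the 3 groups share strain, cell type and medium. The labels do not say whether the 3 libraries of a treatment came from separate cultures, so a p-value measures the spread between these libraries, which may be technical.

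An aminoacyl-tRNA synthetase attaches an amino acid to its tRNA, which supplies both the cytosolic ribosomes and, through a largely separate set of nuclear-encoded enzymes, the ribosomes of the mitochondrion. Gars and Kars each encode both the cytosolic and the mitochondrial enzyme and are counted here as cytosolic. Several cytosolic enzymes are bound in a multi-synthetase complex. Many cytosolic synthetase genes are known targets of Atf4, a transcription factor of the integrated stress response that is translated when eIF2α is phosphorylated and that binds C/EBP-ATF response elements. For each group the question was which synthetase transcripts differed between low stress, high stress and iso-osmolar medium.

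The promoter windows of RefSeq (build GRCm38.p6, from 250 bases before to 50 bases after the start of a gene) were searched on both strands for TGATGNAA, the core of the response element that Atf4 binds, because known Atf4 targets are among the members. A window was given for 27 of the 36 members. The core was found in 5 of the 8 windows of cytosolic genes listed as Atf4 targets, in 0 of 5 of the other cytosolic genes and in 0 of 14 of the mitochondrial genes, against 1219 of 27025 windows (4.51%) over all genes. For each of these 5 genes 1 match is printed, 5′ to 3′ on the strand of the gene, with the core or its reverse complement in capitals.
Yars, chr4:129189895-129189924, plus strand, core starting 3 bases downstream of the start: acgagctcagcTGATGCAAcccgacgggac
Gars, chr6:55037960-55037989, plus strand, reverse complement, 30 bases upstream: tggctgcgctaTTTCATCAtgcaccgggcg
Aars, chr8:111033840-111033869, plus strand, reverse complement, 9 bases downstream: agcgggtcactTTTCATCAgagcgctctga
Iars, chr13:49682126-49682155, plus strand, reverse complement, 7 bases downstream: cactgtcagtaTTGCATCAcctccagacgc
Tars, chr15:11399655-11399684, minus strand, reverse complement, 15 bases upstream: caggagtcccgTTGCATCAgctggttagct
A match describes these letters only and is not evidence of binding, and a window without a match says nothing about Atf4. In the list of 26 genes of the Atf4 programme, 8 of 24 windows held TGATGNAA.

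The libraries held 21716042 to 26740832 counts on genes, and 3 counts corresponded to 0.113 to 0.137 CPM (counts scaled so that library totals are equal), a limit that covers counting error only. All 36 members passed the filter on low counts, which left 13082 genes, and each had at least 98 counts in every library. Of 10 fibroblast markers, 10 had a mean FPKM (reads scaled to gene length and library total) above 1 in each treatment, with a summed FPKM of 5510 to 5595 in iso-osmolar medium, 5393 to 5650 at 500 mOsm and 6246 to 6305 at 600 mOsm. Of 12 markers of epithelial, endothelial, leukocyte, muscle and pluripotent cells, 3 did so (Csf1r, Cd68 and Sox2), with a summed FPKM of 6.12 to 6.63 in iso-osmolar medium, 9.51 to 9.91 at 500 mOsm and 5.48 to 6.03 at 600 mOsm, and Epcam, Kdr and Pou5f1 were at 0 in all iso-osmolar libraries. Some markers moved in the same comparisons as the synthetase genes. Of the 12, 6 passed the filter on low counts, and 3 of these rose and 1 fell at 500 mOsm: the mean FPKM went from 0.0816 to 3.25 for the endothelial marker Pecam1, from 0.00306 to 0.784 for the epithelial marker Cdh1 and from 2.39 to 3.10 for the macrophage marker Csf1r, and Sox2 fell by 1.38 on the log2 scale. Of the 10 fibroblast markers, 1 rose and 2 fell (Col3a1 by 1.27 and Pdgfra by 0.70) at 500 mOsm, and 4 rose and 2 fell at 600 mOsm. Among all genes tested, 13.2% rose and 14.8% fell at 500 mOsm, and 15.1% rose and 20.0% fell at 600 mOsm. At 600 mOsm Pecam1 rose by 2.53 and Sox2 fell by 0.78. The part of these changes in the synthetase results was not tested. In bulk RNA, fewer cells with a transcript and less of it per cell cannot be told apart.

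In iso-osmolar medium the cytosolic genes were expressed at much higher levels per length than the mitochondrial genes. The median of the mean FPKM was 82.7 over the 20 cytosolic genes and 8.78 over the 16 mitochondrial genes. The lysyl-tRNA synthetase gene Kars was highest, at an FPKM of 481 ± 4.09 (SD, n = 3), followed by Vars (valine) at 292 ± 18.3, Aars (alanine) at 260 ± 10.1 and Gars (glycine) at 216 ± 9.93, and the libraries of these 4 genes did not overlap each other. The lowest cytosolic gene was Eprs, which encodes the fused glutamyl-prolyl-tRNA synthetase, at 25.5 ± 4.49, but its libraries overlapped with those of Cars (cysteine), which overlapped with those of Lars (leucine). Among the mitochondrial genes Lars2 (leucine) stood far above the others, at 159 ± 19.96, between the cytosolic genes Sars (serine) and Farsa (a phenylalanyl-tRNA synthetase subunit), with both of which it overlapped. Tars2 (threonine) followed with 36.3 ± 1.47. At the lower end were Mars2 (methionine) with 2.97 ± 0.0688, Ears2 (glutamate) with 1.99 ± 0.0367, and Wars2 (tryptophan) with 1.70 ± 0.198, whose libraries overlapped with those of Nars2 (asparagine) at 1.61 ± 0.329. The summed FPKM of the cytosolic genes was 2410 ± 11.1 (SD, n = 3) without added sucrose, 2349 ± 17.02 at 500 mOsm and 2542 ± 35.3 at 600 mOsm. The mitochondrial sum was 304 ± 20.8, 504 ± 17.99 and 915 ± 27.1 in the same order, whereas without Lars2 it was 145 ± 1.19, 145 ± 3.63 and 157 ± 0.415. Thus nearly all of the higher mitochondrial sum was the level of a single gene.

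**Figure D1:**
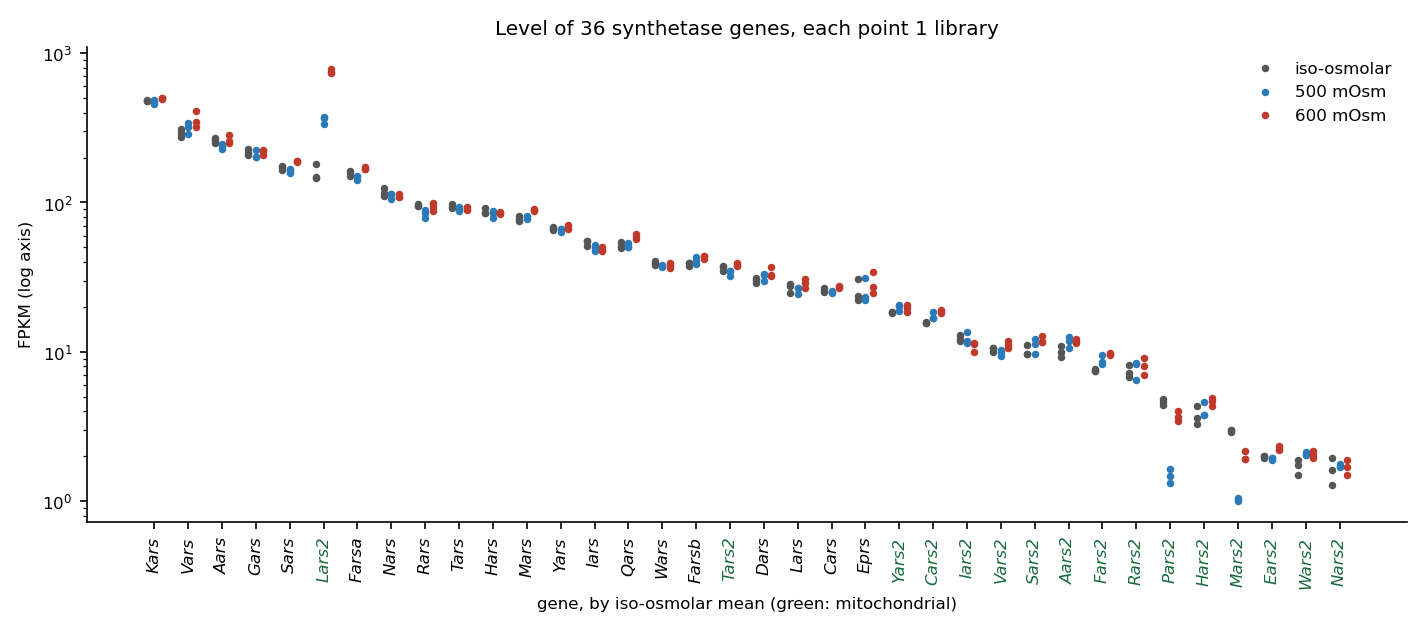
FPKM (log axis) of the 36 synthetase genes in each of the 9 libraries, ordered by the iso-osmolar mean, with mitochondrial genes in green. Lars2 stands apart from the other mitochondrial genes and is higher at 500 mOsm and higher again at 600 mOsm, while Pars2 and Mars2 are lowest at 500 mOsm.

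At 500 mOsm few synthetase genes differed from iso-osmolar medium, and those that differed by more than a small amount were mitochondrial. Among the cytosolic genes 0 of 20 rose, against 13.2% of all genes tested, and 1 of 20 fell, against 14.8% of all genes tested (edgeR's quasi-likelihood test, Benjamini-Hochberg adjusted p under 0.05 over all genes tested, as for every call that follows). Their median log2 fold change was -0.05, with 15 of 20 values negative, and the median of all genes tested was 0.01. Among the mitochondrial genes 2 of 16 rose and 2 of 16 fell, with a median of 0.11. At an unadjusted p under 0.05 there were 2 cytosolic and 7 mitochondrial genes. The share of all genes tested at that threshold was not computed, so these counts cannot be read as many or few.

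Lars2, the mitochondrial leucyl-tRNA synthetase gene, had the largest increase of the 36 genes in each comparison with iso-osmolar medium. Its FPKM was 148, 146 and 182 in the iso-osmolar libraries, 371, 370 and 336 at 500 mOsm and 788, 738 and 749 at 600 mOsm. The libraries of the 3 treatments did not overlap, and the level rose with each step in osmolarity. The mean at 500 mOsm was 2.26 times the iso-osmolar mean, and the mean at 600 mOsm was 4.78 times it. The log2 fold change was 1.18 (SE 0.077, adjusted p = 1.95e-07) at 500 mOsm, 2.28 (SE 0.080, adjusted p = 1.37e-09) at 600 mOsm and 1.10 (SE 0.077) between 600 and 500 mOsm. These calls held in all 21 alternatives tried.

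The count on Lars2 may hold reads from elsewhere. Lars2 lies at chr9:123366940-123462664 (plus strand, mm10) and has 20 coding exons. A stretch of its 3′ UTR, chr9:123462048-123462119, shares 72 bases at 98.6% identity with Gm15564, an annotated gene with 59, 61 and 86 counts in the iso-osmolar libraries, 201, 193 and 150 at 500 mOsm and 357, 311 and 429 at 600 mOsm. An overlapping stretch of 97 bases is shared at 94.8% identity with AA474408, which had 3 to 14 counts per library. Gm15564 was ordered across treatments like Lars2 but had far fewer counts, since Lars2 had 12509 to 17066 counts in the iso-osmolar libraries, 33739 to 38385 at 500 mOsm and 63296 to 77211 at 600 mOsm. A further transcript that was ordered in the same way is Gm26917. The sequence search found no stretch shared between Lars2 and Gm26917 (at least 50 bases at 94% identity). The GENCODE M21 annotation of Gm26917 ends 12 bases before Rn18s-rs5, a RefSeq gene named for 18S ribosomal RNA, on chromosome 17. Gm26917 took 0.1695 to 0.243% of counts in the iso-osmolar libraries, 0.294 to 0.514% at 500 mOsm and 0.641 to 1.28% at 600 mOsm. The counts are given per gene, so where reads fall along Lars2 is not known, and the part of shared or ribosomal sequence in the Lars2 result was not tested.

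**Figure D2:**
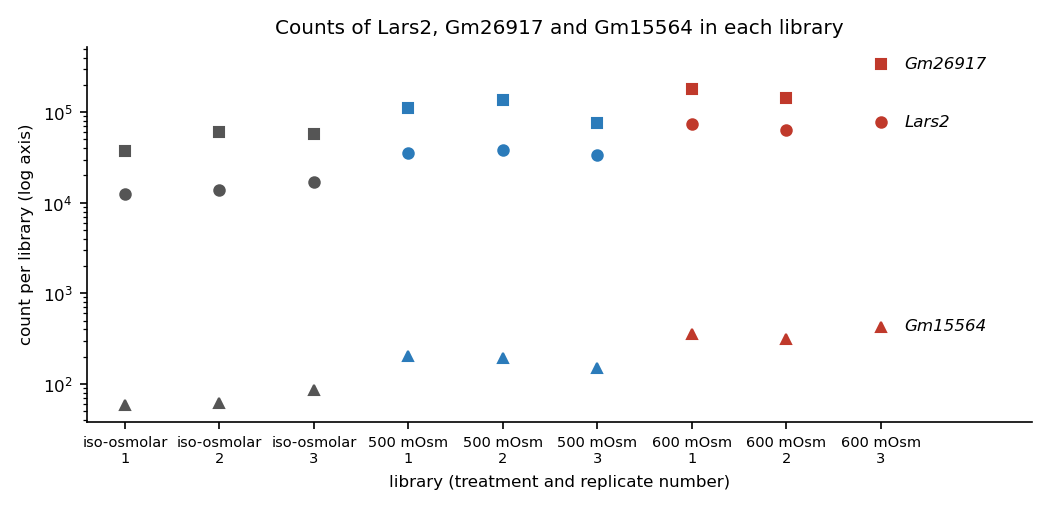
Counts (log axis) of Gm26917 (squares), Lars2 (circles) and Gm15564 (triangles) in each library, coloured by treatment. For Lars2 and Gm15564 every 600 mOsm library lies above every 500 mOsm library and these above every iso-osmolar library, and Gm26917 spans 36812 to 339828 counts with the same order of treatments.

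The largest decreases were in Pars2 and Mars2, the mitochondrial prolyl- and methionyl-tRNA synthetase genes. Pars2 had an FPKM of 4.64, 4.43 and 4.82 in iso-osmolar medium, 1.32, 1.65 and 1.47 at 500 mOsm and 4.03, 3.43 and 3.67 at 600 mOsm. Mars2 had an FPKM of 3.01, 2.89 and 3.003 in iso-osmolar medium, 1.01, 1.06 and 1.02 at 500 mOsm and 1.92, 2.15 and 1.92 at 600 mOsm. In both genes the 3 treatments did not overlap, with the lowest values at 500 mOsm and intermediate values at 600 mOsm. Pars2 fell by 1.64 (SE 0.111, adjusted p = 2.67e-07) on the log2 scale at 500 mOsm and Mars2 fell by 1.52 (SE 0.071, adjusted p = 9.77e-09), and both calls held in all 21 alternatives. At 600 mOsm Mars2 fell by 0.55 (SE 0.068, adjusted p = 5.5e-05) and Pars2 by 0.30 (SE 0.102, adjusted p = 0.0383) against iso-osmolar medium. The 600 mOsm value of Mars2 was -0.24 after a correction for gene length and -0.27, with the call lost, after a correction for gene length and GC content. The 600 mOsm call of Pars2 was lost in 8 of 21 alternatives, among them those without iso-osmolar replicate 1 (-0.30), 2 (-0.32) or 3 (-0.27) or without 600 mOsm replicate 2 (-0.23) or 3 (-0.30).

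Mars2 (chr1:55237177-55248470) and Pars2 (chr4:106651069-106655282) are also the only members whose protein is encoded in 1 coding exon. Over all protein-coding genes tested, 33.2% of the 714 genes with 1 coding exon fell at 500 mOsm, with a median log2 fold change of -0.11, compared to 14.2% of the 11119 genes with 2 or more coding exons, with a median of 0.01. At 600 mOsm 24.5% of genes with 1 coding exon and 20.4% of the others fell. Between 600 and 500 mOsm 28.7% of genes with 1 coding exon and 11.6% of the others were higher. These shares were computed after the values of Mars2 and Pars2 had been seen, and whether gene structure has a part in their decrease was not tested.

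**Figure D3:**
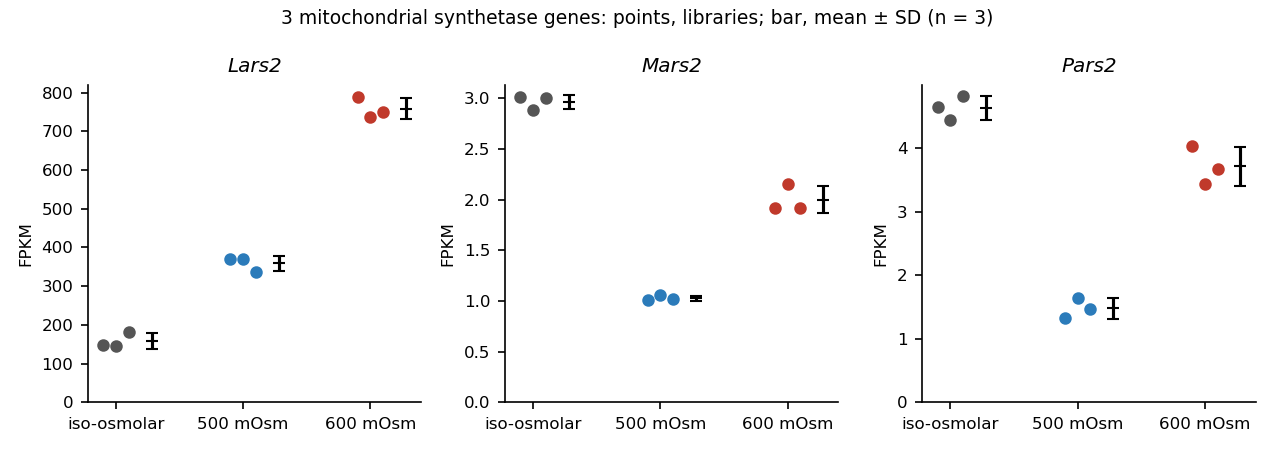
FPKM of Lars2, Mars2 and Pars2 in each library (points) with the mean and SD of 3 libraries (bars), each axis starting at 0. Lars2 rises from 159 to 359 and 758, while Mars2 and Pars2 drop to 1.03 and 1.48 at 500 mOsm and reach 1.999 and 3.71 at 600 mOsm.

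The other calls at 500 mOsm were small. Fars2, which encodes the mitochondrial phenylalanyl-tRNA synthetase, had an FPKM of 7.41, 7.63 and 7.43 in iso-osmolar medium and 8.22, 8.59 and 9.57 at 500 mOsm, without overlap, and rose by 0.23 (SE 0.078, adjusted p = 0.0411) on the log2 scale. Its 500 mOsm call was lost in 12 of 21 alternatives, including 8 of the 9 in which a library was left out (all but 500 mOsm replicate 1), and the value was 0.18 without 500 mOsm replicate 3. Rars, the cytosolic arginyl-tRNA synthetase gene, had an FPKM of 98.1, 94.6 and 94.99 in iso-osmolar medium and 84.8, 78.6 and 88.5 at 500 mOsm. It was the only cytosolic member called, with a decrease of -0.19 (SE 0.053, adjusted p = 0.0167), and the call was lost without iso-osmolar replicate 1 (-0.18) or without 500 mOsm replicate 2 (-0.16). The 19 other cytosolic genes had log2 fold changes between -0.12 (Iars) and 0.12 (Vars), and the widest of their 95% intervals, that of Eprs, ran from -0.30 to 0.32. The 12 mitochondrial genes without a call lay between -0.09 (Tars2) and 0.29 (Wars2, whose adjusted p was 0.0511).

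At 600 mOsm more synthetase genes differed from iso-osmolar medium, mostly upward. Of the 20 cytosolic genes 6 rose, against 15.1% of all genes tested, and 1 fell, against 20.0% of all genes tested. The 6 increases became 3 without iso-osmolar replicate 3 or without 600 mOsm replicate 3, and 10 after a correction for gene length and GC content. The median log2 fold change of the 20 genes was 0.09, with 14 of 20 values positive, and the median of all genes tested was 0.01. Of the 16 mitochondrial genes 6 rose and 2 fell, and the median was 0.17, while 3 rose without iso-osmolar replicate 1, 600 mOsm replicate 1 or 600 mOsm replicate 3. The 2 that fell were Mars2 and Pars2. Without Lars2, Mars2 and Pars2, 5 of the other 13 mitochondrial genes rose, with a median of 0.20. These 3 genes were left out because of their values here, so the absence of a decrease among the 13 was fixed in advance. The share of increases and the median of the 13 also depend on this choice. With only Lars2 left out the median was 0.14. Apart from these 3 genes the changes were small, at most 0.39 on the log2 scale.

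Among the cytosolic genes Vars, the valyl-tRNA synthetase gene, had the largest increase. Its FPKM was 274, 311 and 292 in iso-osmolar medium, 320, 340 and 289 at 500 mOsm and 347, 321 and 407 at 600 mOsm. The 600 mOsm libraries lay above the iso-osmolar ones but overlapped with those at 500 mOsm, and the log2 fold change against iso-osmolar medium was 0.32 (SE 0.094, adjusted p = 0.0202). Vars lost its call without iso-osmolar replicate 1 (0.27) or 3 (0.31) and without 600 mOsm replicate 3, where its value was 0.20.

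Qars and Mars, the glutaminyl- and methionyl-tRNA synthetase genes of the multi-synthetase complex, kept their calls in all 21 alternatives. Qars had an FPKM of 54.0, 49.5 and 50.8 in iso-osmolar medium, 50.3, 50.1 and 53.6 at 500 mOsm and 61.1, 59.5 and 56.6 at 600 mOsm, and rose by 0.22 (SE 0.048, adjusted p = 0.00356) against iso-osmolar medium. Mars had 75.5, 80.7 and 77.1, then 79.9, 81.2 and 77.8, then 90.02, 88.7 and 87.5 in the same order, and rose by 0.21 (SE 0.047, adjusted p = 0.00405). In both genes the 600 mOsm libraries lay above the other 6, which overlapped each other. Dars, the aspartyl-tRNA synthetase gene of the same complex, had an FPKM of 31.3, 29.03 and 30.1 in iso-osmolar medium and 32.4, 36.8 and 32.9 at 600 mOsm, and rose by 0.19 (SE 0.059, adjusted p = 0.0228). The call for Dars was lost in 8 of 21 alternatives, among them those without iso-osmolar replicate 2 or 3 or 600 mOsm replicate 2, where its value was 0.15 to 0.19. Farsb (phenylalanine, 0.18) and Sars (0.14) rose as well, and each lost its call in 4 alternatives, Farsb without iso-osmolar replicate 3 (0.15) or 600 mOsm replicate 3 (0.16) and Sars without iso-osmolar replicate 1 (0.11) or 600 mOsm replicate 1 or 3 (both 0.14) among them.

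Iars, the isoleucyl-tRNA synthetase gene, was the cytosolic member that fell at 600 mOsm. Its FPKM was 55.5, 51.3 and 55.5 in iso-osmolar medium and 48.3, 50.6 and 47.3 at 600 mOsm, without overlap, for a log2 fold change of -0.13 (SE 0.045, adjusted p = 0.042). The call was lost in 13 of 21 alternatives, including 7 of the 9 in which a library was left out (all but iso-osmolar replicate 2 and 500 mOsm replicate 3, with values of -0.14 to -0.12), and the value was 0.0098 after a correction for gene length and GC content. Iars also shares 1656 bases at 96.0% identity with the pseudogene Gm4849, so its reads may have been split. The 13 cytosolic genes without a call ranged from -0.06 (Nars, asparagine) to 0.19 (Eprs, 95% interval -0.12 to 0.50).

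Of the mitochondrial genes other than Lars2, Fars2 rose most at 600 mOsm, with an FPKM of 9.499, 9.64 and 9.81 and a log2 fold change of 0.39 (SE 0.078, adjusted p = 0.00226). Hars2 (histidine) had an FPKM of 3.60, 3.30 and 4.31 in iso-osmolar medium and 4.91, 4.32 and 4.67 at 600 mOsm, a change of 0.33 (SE 0.115, adjusted p = 0.04) in which the closest libraries of the 2 treatments nearly met. Cars2 (cysteine) had an FPKM of 15.8, 15.5 and 15.6 in iso-osmolar medium and 18.3, 19.2 and 18.8 at 600 mOsm, clearly apart, a change of 0.28 (SE 0.062, adjusted p = 0.00387). Fars2 and Cars2 kept their calls in all 21 alternatives, whereas Hars2 lost its call in 7, among them those without iso-osmolar replicate 1 or 2 or 600 mOsm replicate 1 or 3 (0.26 to 0.31). Sars2 (0.27) and Aars2 (0.25) rose too, with calls lost in 11 and 4 alternatives. For Sars2 these include the fits without iso-osmolar replicate 1 or 2, 500 mOsm replicate 3 or 600 mOsm replicate 1 or 3 (0.21 to 0.29), and for Aars2 those without iso-osmolar replicate 1 or 3 or 600 mOsm replicate 1 or 3 (0.19 to 0.26). Without a call were 8 mitochondrial genes, between -0.17 (Iars2) and 0.28 (Wars2, adjusted p = 0.0515). Several of these genes share exon bases with a gene on the opposite strand: Fars2 with Nrn1 (501 bases) and Lyrm4 (115), Cars2 with Naxd (422), Hars2 with Hars (195), Iars2 with Rab3gap2 (2034), and Farsb, of the cytosolic genes, with Sgpp2 (248). Whether strand was used in counting is not given in the sources used here, and reads from such partners cannot be told apart.

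**Figure D4:**
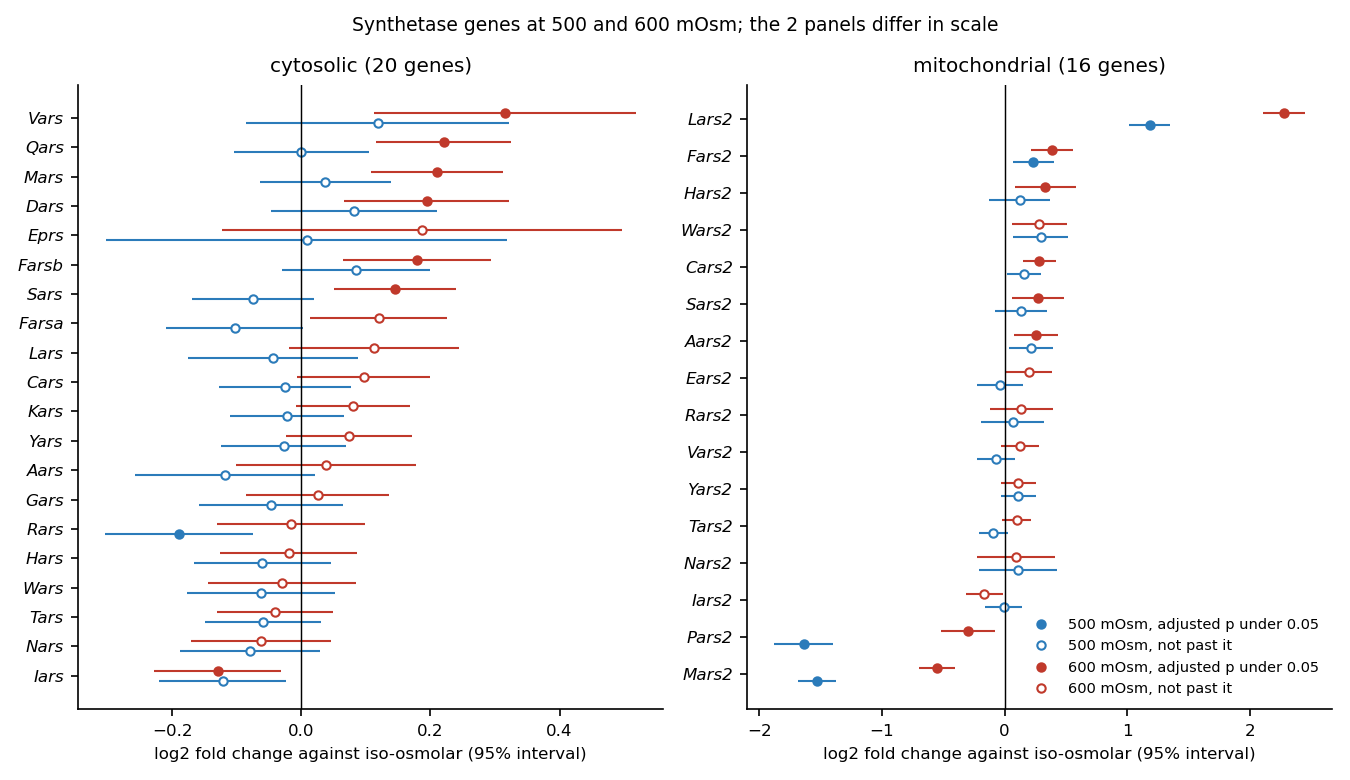
Log2 fold changes of the 20 cytosolic (left) and 16 mitochondrial (right) genes at 500 mOsm (blue) and 600 mOsm (red) against iso-osmolar medium, with 95% intervals, and filled points for adjusted p under 0.05. The scale of the panels differs: cytosolic values lie between -0.19 and 0.32, while Lars2 reaches 2.28 and Pars2 reaches -1.64.

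Between 500 and 600 mOsm a minority of the synthetase genes rose and none fell. Of 20 cytosolic genes 5 rose, against 11.9% of all genes tested, and 0 fell, against 17.2% of all genes tested. At an unadjusted p under 0.05 there were 10 genes, again without a share of all genes tested at that threshold. Of the cytosolic log2 fold changes 19 of 20 were positive, with a median of 0.12 against 0.01 for all genes tested. Of the 16 mitochondrial genes 4 rose and 0 fell, with a median of 0.15. The comparison uses the same 500 mOsm libraries as the comparison of 500 mOsm with iso-osmolar medium.

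Farsa had an FPKM of 151, 160 and 162 in iso-osmolar medium, 141, 151 and 148 at 500 mOsm and 173, 166 and 168 at 600 mOsm, a difference of 0.22 (SE 0.049, adjusted p = 0.00429) between the stress intensities. Sars had 166, 174 and 176, then 158, 166 and 165, then 188, 188 and 186, and the same difference of 0.22 (SE 0.044, adjusted p = 0.00226). In both genes the 600 mOsm libraries stood above all others, and the 500 mOsm libraries overlapped with the iso-osmolar ones. Qars rose by 0.22 (SE 0.048, adjusted p = 0.00407), and these 3 calls held in all 21 alternatives. Mars rose by 0.17, a call lost only without 600 mOsm replicate 1 (0.16). Rars, which had been lower at 500 mOsm, had an FPKM of 88.0, 99.8 and 92.9 at 600 mOsm, which overlapped in FPKM with the 500 mOsm libraries, and its difference of 0.17 (SE 0.053, adjusted p = 0.0263) was lost in 10 of 21 alternatives, among them those without 500 mOsm replicate 1 or 2 or 600 mOsm replicate 2 or 3 (0.14 to 0.18).

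Of the mitochondrial genes, Pars2 rose by 1.34 (SE 0.112, adjusted p = 2.2e-06), Lars2 by 1.10 and Mars2 by 0.97 (SE 0.072) between 500 and 600 mOsm, in all 21 alternatives. Tars2 had an FPKM of 32.2, 35.0 and 34.9 at 500 mOsm and 39.3, 37.5 and 38.3 at 600 mOsm, a difference of 0.19 (SE 0.055, adjusted p = 0.0213). The iso-osmolar libraries, at 34.7, 37.5 and 36.8, overlapped with both. The call for Tars2 was lost without 500 mOsm replicate 1 (0.15) or without 600 mOsm replicate 1 (0.17) or 3 (0.18). The 12 mitochondrial genes without a call lay between -0.16 (Iars2) and 0.24 (Ears2, adjusted p = 0.0506). Over the 3 comparisons, 9 cytosolic and 9 mitochondrial genes were called at least once, while 11 cytosolic genes and 7 mitochondrial genes were called in none. Of all genes tested, 51.0% were called at least once.

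Next, the cytosolic genes were divided by whether they are listed as Atf4 targets. Of the 12 listed genes (Aars, Cars, Eprs, Gars, Iars, Lars, Mars, Nars, Sars, Tars, Wars and Yars), 0 rose and 0 fell at 500 mOsm, where the median was -0.05 and 10 of 12 values were negative. At 600 mOsm 2 rose (Mars and Sars) and 1 fell (Iars), with a median of 0.06, and between 600 and 500 mOsm 2 rose. Of the 8 other cytosolic genes, 1 fell at 500 mOsm, 4 rose at 600 mOsm (median 0.15) and 3 rose between 600 and 500 mOsm. Over all genes tested, 13.2% rose and 14.8% fell at 500 mOsm, 15.1% rose and 20.0% fell at 600 mOsm, and 11.9% rose and 17.2% fell between 600 and 500 mOsm. The 5 genes with a printed promoter match, Yars, Gars, Aars, Iars and Tars, were not called at 500 mOsm. For Aars the FPKM was 250, 270 and 260 in iso-osmolar medium, 241, 248 and 228 at 500 mOsm and 257, 249 and 283 at 600 mOsm. The 500 mOsm libraries lay just below the others in FPKM, and the difference from iso-osmolar medium, -0.12 on the log2 scale, did not pass the test (adjusted p = 0.206).

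The Atf4 transcript had an FPKM of 219, 207 and 211 in iso-osmolar medium, 249, 246 and 254 at 500 mOsm and 224, 207 and 213 at 600 mOsm. It was highest in the 500 mOsm libraries, without overlap, by 0.24 (SE 0.045, adjusted p = 0.00143) on the log2 scale against iso-osmolar medium, and 600 mOsm differed from iso-osmolar medium by 0.04 (adjusted p = 0.558). Atf4 activity is set largely by translation, which the counts do not measure. Of the 26 genes of the Atf4 programme other than synthetases, a list that includes Atf4 itself, 6 rose and 5 fell at 500 mOsm, 8 rose and 2 fell at 600 mOsm, and 6 rose and 6 fell between 600 and 500 mOsm, against the shares of all genes tested of 13.2% and 14.8%, 15.1% and 20.0%, and 11.9% and 17.2% in the same order.

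These programme genes moved far more than the synthetase genes in some cases. Ddit4, an inhibitor of mTORC1 signalling, had an FPKM of 7.38, 9.63 and 7.45 in iso-osmolar medium, 82.8, 80.6 and 73.7 at 500 mOsm and 18.9, 16.6 and 16.6 at 600 mOsm (log2 fold changes of 3.28 and 1.11). Ppp1r15a, which encodes GADD34, the subunit that directs a phosphatase to eIF2α, had 7.38, 8.44 and 8.05, then 65.5, 68.5 and 63.5, then 9.94, 9.43 and 9.99 (3.05 and 0.32). Atf3, a stress-induced transcription factor, had 1.44, 1.43 and 1.02, then 10.5, 9.74 and 11.7, then 1.90, 2.44 and 1.61, and fell by 2.41 between 500 and 600 mOsm. All 3 were highest at 500 mOsm, without overlap, where no cytosolic synthetase gene rose. The study reported that the rise of Ppp1r15a at this intensity depended on the transcription factor TonEBP and was diminished when NF-κB c-Rel was depleted. Whether Atf4 has a part in the rise of these 3 genes was not tested here. Ddit3, which encodes CHOP, had an FPKM of 10.3, 7.93 and 8.996, then 8.40, 8.88 and 8.77, then 13.8, 14.3 and 15.3, and rose by 0.70 at 600 mOsm.

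Some members of the programme fell. Sesn2, a leucine sensor, had an FPKM of 4.13, 4.88 and 4.42 in iso-osmolar medium, 2.52, 3.002 and 2.83 at 500 mOsm and 3.67, 3.76 and 3.97 at 600 mOsm, and fell by 0.68 at 500 mOsm. Cebpg, a partner of Atf4 in binding the response element, had 4.56, 3.43 and 4.11, then 3.24, 3.12 and 2.92, then 2.83, 3.38 and 2.66, and fell by 0.38 at 500 mOsm and by 0.43 at 600 mOsm. Slc7a1, a transporter of cationic amino acids, had 25.3, 24.1 and 24.9, then 21.3, 20.7 and 21.5, then 18.1, 17.4 and 16.1, and fell by 0.51 at 600 mOsm. The asparagine synthetase gene Asns, often used as a readout of Atf4, had log2 fold changes of -0.09 (adjusted p = 0.227) at 500 mOsm and 0.11 (adjusted p = 0.109) at 600 mOsm, and was higher by 0.20 (adjusted p = 0.0102) at 600 than at 500 mOsm.

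The 8 synthetase genes of the multi-synthetase complex (Dars, Eprs, Iars, Kars, Lars, Mars, Qars and Rars) gave 0 increases and 1 decrease at 500 mOsm, 3 increases and 1 decrease at 600 mOsm, and 3 increases and 0 decreases between 600 and 500 mOsm. The 12 cytosolic genes outside the complex gave 0 and 0, 3 and 0, and 2 and 0 in the same order. The shares over all genes tested were 13.2% higher and 14.8% lower, then 15.1% and 20.0%, then 11.9% and 17.2%. The genes of the scaffold proteins of the complex, Aimp1, Aimp2 and Eef1e1, were all higher at 600 than at 500 mOsm, by 0.21, 0.21 and 0.18. Eef1e1 had an FPKM of 93.0, 87.9 and 88.4 in iso-osmolar medium, 73.6, 76.7 and 77.8 at 500 mOsm and 84.9, 85.3 and 84.6 at 600 mOsm, lowest at 500 mOsm without overlap, where it fell by 0.24 (SE 0.047, adjusted p = 0.00211). By structural class of the enzyme, the 10 class I genes gave 0 increases and 1 decrease at 500 mOsm and 3 and 1 at 600 mOsm, and the 11 class II genes gave 0 and 0, then 3 and 0, with Eprs counted in both.

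In addition, 10 accessory genes of tRNA charging were examined. At 500 mOsm 0 rose and 1 fell, at 600 mOsm 1 rose and 1 fell, and between 600 and 500 mOsm 0 rose and 2 fell. For comparison, 13.2% of all genes tested rose and 14.8% fell at 500 mOsm. At 600 mOsm 15.1% rose and 20.0% fell, and between 600 and 500 mOsm 11.9% rose and 17.2% fell. Dtd1, which encodes an enzyme that removes D-amino acids from tRNA, had 20.6, 19.8 and 21.2 in iso-osmolar medium and 23.8, 24.2 and 21.9 at 600 mOsm, and rose by 0.20 (adjusted p = 0.0392).

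Tarsl2, which encodes a second cytosolic threonyl-tRNA synthetase, was lower at 600 than at 500 mOsm by -0.31, with an FPKM of 3.71, 3.43 and 3.34 at 500 mOsm and 2.52, 3.07 and 2.76 at 600 mOsm. Gatc, a subunit of the mitochondrial glutamyl-tRNA(Gln) amidotransferase, was lower by -0.25, with 15.95, 16.4 and 17.5 at 500 mOsm and 14.3, 14.7 and 12.4 at 600 mOsm. The iso-osmolar libraries had 2.88 to 3.35 for Tarsl2 and 13.8 to 14.7 for Gatc, and neither gene was called against them. Against iso-osmolar medium the log2 fold changes at 500 and 600 mOsm were 0.16 and -0.16 for Tarsl2 and 0.21 and -0.05 for Gatc. Aarsd1, a gene of alanyl-tRNA editing, was at an FPKM of 0.334, 0.429 and 0.627 in iso-osmolar medium and at most 0.149 in the stressed libraries. It fell by 2.26 at 500 mOsm and by 1.83 at 600 mOsm on the log2 scale, but these values rest on 11 to 23 counts in the iso-osmolar libraries and 1 to 5 in the others.

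Finally, the balance of cytosolic and mitochondrial transcripts was described for 17 pairs of genes that serve the same amino acid, as the log2 ratio of their FPKM in each library. Fars2 enters with both Farsa and Farsb, and Eprs with both Ears2 and Pars2, so some pairs share a gene. The ratio compares transcripts within a library, so library scaling does not affect it. In iso-osmolar medium the cytosolic gene was the higher in 16 of 17 pairs, with a median log2 ratio of 3.70, and leucine was the exception, at -2.55. The leucine ratio was -3.92 to -3.65 at 500 mOsm and -4.81 to -4.60 at 600 mOsm, against -2.72 to -2.38 in iso-osmolar medium, a shift of -1.23 and -2.17 in the means. For methionine the ratio was 4.65 to 4.80 without added sucrose, 6.26 to 6.31 at 500 mOsm and 5.36 to 5.55 at 600 mOsm. For proline, which is served in the cytosol by Eprs, the mean ratio was 2.45, 4.10 and 2.94 in the 3 treatments. These 3 pairs carry the changes of Lars2, Mars2 and Pars2 described above. Of the 17 pairs, 12 had a mean ratio below the iso-osmolar one at 500 mOsm and 13 at 600 mOsm, and 11 lay within 0.25 of the iso-osmolar mean at 500 mOsm.

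**Figure D5:**
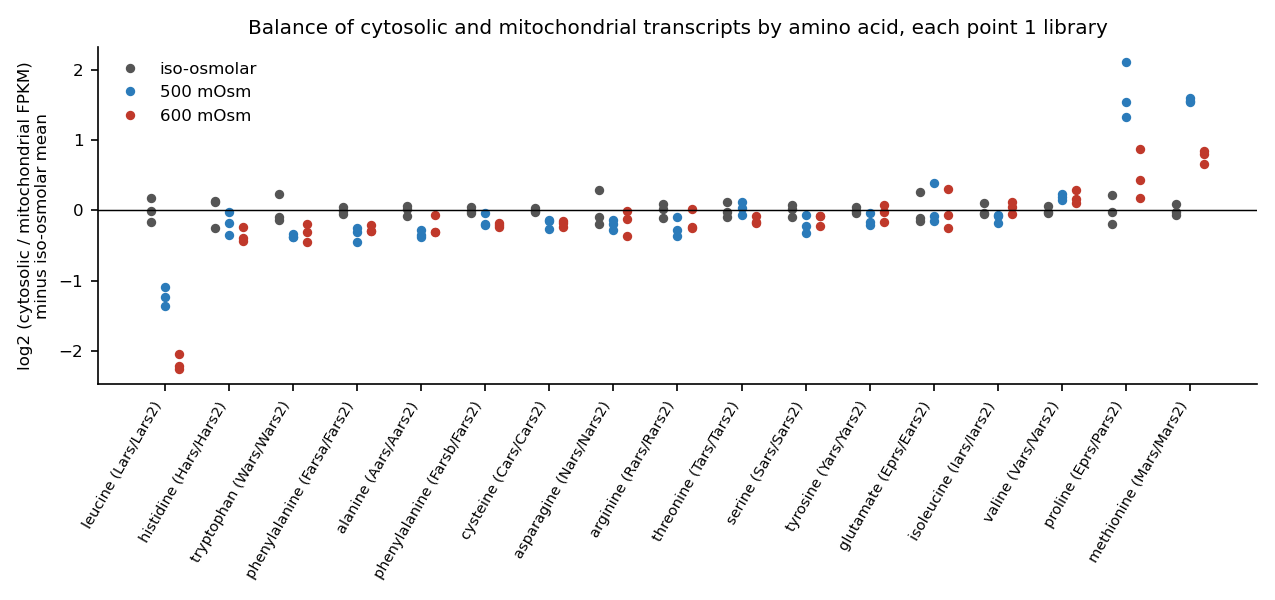
Log2 ratio of cytosolic to mitochondrial FPKM for 17 gene pairs in each library, as the difference from the iso-osmolar mean of the pair. The leucine pair shifts by -1.23 at 500 mOsm and -2.17 at 600 mOsm, the methionine and proline pairs shift upward, most at 500 mOsm, and most other pairs stay within 0.5 of 0.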

How the data were processed

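RNA-seq of 9 MEF libraries (3 per treatment) was analysed from the deposited table of 35275 genes. Per the labels, mRNA was selected with poly-T beads and fragmented. The submitters' processing notes name CASAVA 1.8, STAR and mm10. The counting tool, annotation and use of strand are not given in the sources used here. The authors deposited raw read counts per gene and FPKM, which equals the count divided by the listed gene length and the library's total count. Their fold changes, p-values and group means were not used.

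Counts were tested in R 4.3.3 with edgeR 4.0.16 (TMM factors 0.974 to 1.013, filterByExpr, quasi-likelihood test, all 9 libraries in a single fit with treatment as factor, 13082 genes tested, Benjamini-Hochberg adjustment, threshold 0.05). The biological coefficient of variation common to all genes was 0.0756. The script was tested on simulated data. No pair of libraries of a treatment was alike beyond sampling noise (chi-square per gene 5.27 to 15.95). Alternatives used limma 3.58.1, DESeq2 1.42.0, other scalings, filters and corrections, and each library left out. Gene models are those of GENCODE M21, and blastn 2.17.0 was used to find sequence that members share with other genes (at least 100 bases at 95% identity, for Lars2 50 bases at 94%).

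The members and gene lists were chosen with earlier results of these data known. Values per library are given for the 4 called genes per direction with the largest change among cytosolic and among mitochondrial members in each comparison, for Atf4, and for the 2 per direction in the Atf4 programme and accessory lists. Aars, Atf3 at 500 mOsm, Eef1e1, Asns and the coding-exon classes were chosen after values were seen. Protein sequences were not analysed here. An accessory gene and a promoter match are not reported here.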

Additional observations from a re-analysis of the deposited data

How the results depend on the processing

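Of the 29 member calls, 14 held in all 21 alternatives tried. Among mitochondrial genes, 1 rather than 2 rose at 500 mOsm with no filter, in DESeq2, in a fit of the 2 groups compared and with the replicate number as a block, and 5 rose after the gene length and GC correction, which was chosen after seeing the data. The cytosolic median at 500 mOsm was then -0.0210. At 600 mOsm that correction gave 10 cytosolic increases, 0 cytosolic decreases, 1 mitochondrial decrease, a cytosolic median of 0.12 and, for Iars, a reversed value of 0.0098. With gene length alone this median was 0.13 and 0 cytosolic genes fell, as also with RLE factors, no filter, DESeq2 and the replicate block. The mitochondrial decreases at 600 mOsm were 1 with no filter, in DESeq2 and with the block. Between 600 and 500 mOsm, 9 cytosolic genes rose with no filter and 8 after the length and GC correction. The cause of these changes was not tested. Mars2 was -0.97 at 500 mOsm in limma on log2(FPKM + 1), a scale that understates changes of low genes, and -0.24 at 600 mOsm after gene length correction and -0.27 after length and GC correction, which lost its call. At 600 mOsm without iso-osmolar replicate 3 or 600 mOsm replicate 3 only 3 cytosolic genes rose, and without iso-osmolar replicate 1, 600 mOsm replicate 1 or 600 mOsm replicate 3 only 3 mitochondrial genes rose. Over the 9 fits that omit 1 library, the cytosolic decreases at 500 mOsm were 0 to 2 and the mitochondrial increases 1 to 2, with 2 mitochondrial decreases throughout. At 600 mOsm the ranges were 3 to 6 and 0 to 1 for cytosolic increases and decreases and 3 to 6 and 1 to 2 for mitochondrial ones, and between 600 and 500 mOsm 4 to 6 cytosolic and 3 to 5 mitochondrial genes rose. Leaving Gm26917 and Lars2 out of the library totals, also chosen after seeing the data, changed no call. The titles number the replicates 1 to 3 in each treatment. Deviations of libraries with the same number had a mean correlation of -0.22 over 9 pairs (-0.62 to 0.54). Libraries with different numbers had a mean of 0.11 over 18 pairs (-0.32 to 0.56). These ranges overlap, so they cannot decide whether libraries with the same number share a culture or a batch. With the block, the calls for Fars2 at 500 mOsm, for Dars, Farsb, Iars, Pars2 and Sars2 at 600 mOsm and for Rars between 600 and 500 mOsm were lost and no other. Ratios by amino acid computed from TPM equal those from FPKM by construction. With 3 libraries per treatment, standard errors were near 0.05 (cytosolic) and 0.08 (mitochondrial) on the log2 scale. Differences well above a standard error could stay without a call, such as that of Wars2 at 500 mOsm (0.29, SE 0.104). A gene without a call is therefore not shown to be unchanged.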
